A study of Mus musculus with 65 samples.

Results

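Meiotic recombination in mouse spermatocytes starts at hotspots, and 1072 of the 13314 autosomal hotspots in the wild-type DMC1 list (8.05%) began within 12 Mb of the centromeric end of their chromosome. The rule that selects them uses position alone and takes rows of that list on chromosomes 1 to 19 with a start below 12000000. Mouse chromosomes are telocentric, so low coordinates lie next to the centromere, and the lowest start of any autosomal hotspot was 3005088, on chromosome 18. The 12242 other autosomal hotspots served as the comparison. The study mapped meiotic proteins by chromatin immunoprecipitation and sequencing (ChIP-seq) in whole testes whose first meiotic wave had been synchronised. Male pups were fed WIN 18,466, which blocks retinoic acid signalling, from 1.5 days after birth for 7 to 10 days. A dose of retinoic acid followed by injection, and the testes were collected on day 8 after it, a stage at which the submitters give an enrichment for leptotene and zygotene spermatocytes of 80 to 95%. The groups were wild-type C57BL/6JCrl mice and the mutants B6;129P2-Prdm9tm1Ymat/J (Prdm9KO), Spo11tm1Mjn (Spo11KO), Mei4tm1Bdm (Mei4KO), Iho1tm1.2Atot (Iho1KO) and Hormad1tm1.2Atot (Hormad1KO), each with the same synchronisation. Every group had this treatment, so no comparison here shows what it does. The labels give no litter and no number of mice per library. The files gave 21 peak lists for MEI4, IHO1, HORMAD1 and SYCP3, DMC1 hotspots for the wild type and Hormad1KO, and CTCF peaks for the wild type, with 1 list per group. A list from whole testis cannot tell apart a protein at a site in fewer cells from less of it in each cell. No list was analysed here for a protein in its own knockout, since the submitters subtracted that signal from the other lists, so the lists do not check the knockouts.

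In meiosis the axis of each chromosome, built on SYCP3 and carrying HORMAD1, is where IHO1 and MEI4 assemble with the break enzyme SPO11. PRDM9 binds its DNA motif away from the axis and marks the sites, the hotspots, at which breaks are made. DMC1 then coats the single-stranded DNA at a break, so a DMC1 ChIP-seq value is a measure of how much broken DNA a hotspot holds in the sampled cells, from both the rate of breakage and the time a break lasts. Regions next to centromeres are known for few crossovers.

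No sequence of the hotspots themselves was read, because no genome of the files' build was used here. Gene starts inside the hotspots have sequence in RefSeq (GRCm38.p6), and they are shown because hotspots at gene ends are described further on. Of the 1072 hotspots, 134 held at least 1 whole promoter window, defined as 250 bases before to 50 after a start, and these held 194 such windows. The 250 bases before the start are shown for 4 of them, in lower case with each CG dinucleotide in capitals and read along the strand of the gene. The first is the window, outside every annotated gene body and of a coding gene, whose hotspot had SYCP3 peaks in all 4 of Prdm9KO, Spo11KO, Mei4KO and Iho1KO. The next windows by that count are of Fam133b, in 3 of these lists, and Tmem243, the strongest of those in 2. Taf3 is shown for contrast: among such windows in hotspots without a peak in any of the 21 lists, its hotspot had the highest DMC1 value.
Map2k7, a kinase of the JNK pathway, chr8:4238490-4238739, plus strand: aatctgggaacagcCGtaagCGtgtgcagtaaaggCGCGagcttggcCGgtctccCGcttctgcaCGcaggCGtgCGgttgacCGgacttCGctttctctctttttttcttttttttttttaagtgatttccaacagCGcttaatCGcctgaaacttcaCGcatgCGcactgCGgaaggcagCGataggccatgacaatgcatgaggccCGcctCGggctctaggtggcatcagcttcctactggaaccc
Fam133b, chr5:3543583-3543832, plus strand: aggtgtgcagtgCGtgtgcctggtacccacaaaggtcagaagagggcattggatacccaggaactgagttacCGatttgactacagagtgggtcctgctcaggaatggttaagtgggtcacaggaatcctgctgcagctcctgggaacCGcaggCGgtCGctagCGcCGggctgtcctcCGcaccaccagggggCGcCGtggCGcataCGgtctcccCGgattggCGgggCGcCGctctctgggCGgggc
Tmem243, chr5:9100487-9100736, plus strand: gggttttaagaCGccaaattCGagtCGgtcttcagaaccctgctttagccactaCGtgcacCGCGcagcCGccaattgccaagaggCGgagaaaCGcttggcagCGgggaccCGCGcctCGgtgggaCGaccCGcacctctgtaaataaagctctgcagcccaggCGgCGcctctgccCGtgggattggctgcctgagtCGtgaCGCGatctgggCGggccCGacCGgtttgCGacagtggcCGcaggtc
Taf3, a subunit of the general transcription factor TFIID, chr2:10048610-10048859, minus strand: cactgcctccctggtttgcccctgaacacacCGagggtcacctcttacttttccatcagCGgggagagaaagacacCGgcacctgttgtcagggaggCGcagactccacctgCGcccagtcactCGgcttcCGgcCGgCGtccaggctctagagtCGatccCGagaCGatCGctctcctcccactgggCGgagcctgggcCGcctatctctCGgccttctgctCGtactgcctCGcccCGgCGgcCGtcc
These held 19, 17, 26 and 21 CG dinucleotides. The hotspot at Map2k7 was weak, with a wild-type DMC1 value of 50, and those at Fam133b, Tmem243 and Taf3 had 112.5, 268.5 and 203.5. None of the 4 was in the Hormad1KO DMC1 list.

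The hotspots near the centromeric end were of near-average strength in the wild type. The unit of the DMC1 value is not stated by the sources used here. It comes in steps of 0.5 and was used to order and class hotspots. The median was 122.5, with quartiles of 58.0 and 356 and a range from 13.5 to 10438, against a median of 128.5 and quartiles of 55.0 and 434.5 in the other hotspots. The strongest were somewhat under-represented. Of the 1072, 240 (22.4%) were in the strongest 25% of all autosomal hotspots, against 25.2% of the others, a difference of -2.84 percentage points (95% interval -5.36 to -0.144). That interval included 0 when any 1 of chromosomes 4, 6, 8, 9, 10, 14, 15 or 16 was left out. Between 3 and 12 Mb there were 6.27 ± 1.98 hotspots per Mb (SD, n = 19 chromosomes) and further along 5.57 ± 0.501. The mean difference, 0.702 ± 1.799, was smaller than its spread, and 13 of the 19 chromosomes were denser near the end. The number per chromosome ran from 24 on chromosome 7 to 86 on chromosome 2, and on chromosome 14 the first hotspot began at 7819987. The hotspots were as wide as the others, with median widths of 1946 and 1940 bp. Just inside the 12 Mb limit, 119 hotspots began between 11 and 12 Mb, with a median value of 140.5. Just outside it, 117 began between 12 and 13 Mb, with a median of 137.5. The Hormad1KO DMC1 list held 35 and 27 of these, where 45.8 and 42.2 were expected.

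How often a protein is found at a hotspot depends on hotspot strength, so each list was compared at like strength. A hotspot counted as occupied when it shared at least 1 bp with a peak. The expected share is that of the other autosomal hotspots in each of 10 equal classes of wild-type DMC1 value, weighted by the number of centromeric-end hotspots in the class. A difference was called when its 95% interval excluded 0. The intervals cover counting error only and treat hotspots as independent; with 1 list per group there are no replicates and no p-values.

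MEI4, a partner of SPO11 required for break formation, sat at centromeric-end hotspots as often as elsewhere in the wild type. Its wild-type list reached 105 of the 1072 hotspots (9.79%, Wilson 95% interval 8.16 to 11.7), and 9.69% was expected. Across all autosomal hotspots the share was 11%. The difference was 0.108 points (-1.58 to 2.07). It was there less often than expected in 3 knockouts. MEI4 was at 149 of the hotspots in Spo11KO (13.9%, 11.96 to 16.1), where 26.9% was expected and 27.8% of all autosomal hotspots were occupied. It was at 153 in Hormad1KO (14.3%, 12.3 to 16.5), with 26.3% expected and 27.1% over all. In Iho1KO it was at 71 (6.62%, 5.28 to 8.27), with 18.4% expected and 19% over all. Against expectation this was -12.98 points in Spo11KO (-14.99 to -10.7), -12.1 in Hormad1KO (-14.1 to -9.77) and -11.8 in Iho1KO (-13.3 to -10.1). On every one of the 19 autosomes the count was below its expectation in each of these knockouts. Without PRDM9, MEI4 was at 1 of the 1072 hotspots and at 0.0601% of all autosomal ones.

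**Figure D1:**
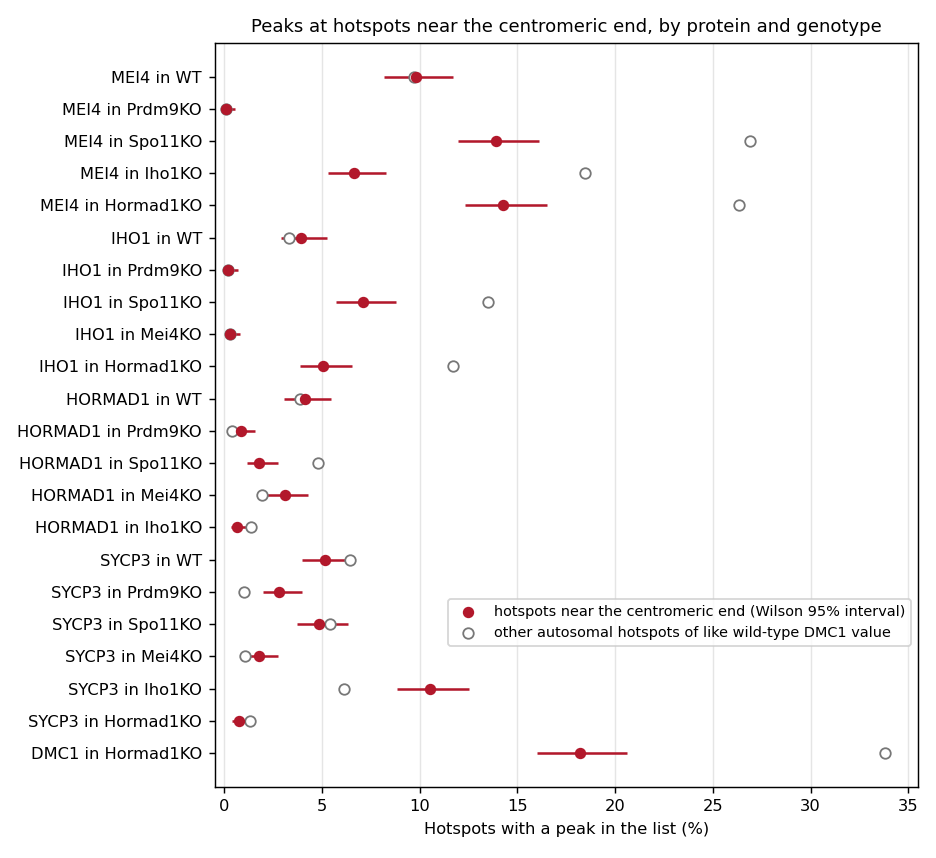
Share of hotspots with a peak, in percent (horizontal axis), for each protein and genotype (rows). Filled points are the 1072 hotspots near the centromeric end with Wilson 95% intervals, and open points are the shares expected from other autosomal hotspots of like wild-type DMC1 value. In the wild type (WT) the points for MEI4 lie together at 9.79 and 9.69%, and in Spo11KO they stand at 13.9 and 26.9%.

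The knockout lists are longer than the wild-type list (3817 MEI4 peaks in Spo11KO, 3828 in Hormad1KO and 2679 in Iho1KO, against 1566), so retained and added peaks were counted apart. Of the 105 centromeric-end hotspots with wild-type MEI4, 81.0% (72.4 to 87.3) kept it in Spo11KO, where 95.1% of like-value wild-type MEI4 hotspots elsewhere did. In Hormad1KO 85.7% (77.8 to 91.1) did, with 93.3% expected. The gap was widest in Iho1KO, at 45.7% (36.5 to 55.2) with 82.6% expected, a difference of -36.9 points (-46.3 to -27.1). Of the 967 hotspots without wild-type MEI4, 6.62% gained a peak in Spo11KO, 6.51% in Hormad1KO and 2.38% in Iho1KO, where 19.6, 19.1 and 11.6% were expected. All 6 differences were called lower. MEI4 was found in all 3 knockouts at 62 hotspots (5.78%, with 14.8% expected), and in none of them at 884 (82.5%, with 66.7% expected).

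A few hotspots had MEI4 in the wild type and in none of Spo11KO, Iho1KO and Hormad1KO. There were 7 such hotspots near the centromeric end and 8 among the 12242 others, where 0.706 was expected, a difference of 0.587 points (0.245 to 1.28). They are named here after their values were seen. They began at 3330586 on chromosome 2 (DMC1 value 1127.5), 4774076 and 7297909 on chromosome 7 (704 and 82.0), 9161294 on chromosome 13 (542.5), 6535752 on chromosome 9 (514.5), 6066525 on chromosome 15 (340.0) and 3879117 on chromosome 11 (216.5). Only those on chromosomes 9 and 13 were in the Hormad1KO DMC1 list.

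The shortfall varied with strength. In the strongest class (values of 1246 and more) MEI4 occupied 55 of 86 centromeric-end hotspots in the wild type (64.0%, beside 65.5% elsewhere), 76 in Spo11KO (88.4%, beside 94.1%) and 53 in Iho1KO (61.6%, beside 81.6%). In the next class (588 to 1244) the wild-type shares were 31.8 and 31.9%, while in Spo11KO MEI4 was at 51 of 110 hotspots (46.4%, beside 83.7%) and in Iho1KO at 14 (12.7%, beside 50.5%). In the class below that (319 to 587.5) it was at 14 of 92 in Spo11KO (15.2%, beside 59.4%) and at 2 in Iho1KO (2.17%, beside 30.5%). The Spo11KO share of the ninth class near the centromeric end thus lay between those of other hotspots in the seventh and eighth classes, 29.5 and 59.4%. Among the 546 hotspots with values of at most 127.5, MEI4 was at 2 in the wild type, 2 in Spo11KO, 1 in Iho1KO and 2 in Hormad1KO, where 1.07, 10.9, 12.6 and 21.7 were expected.

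**Figure D2:**
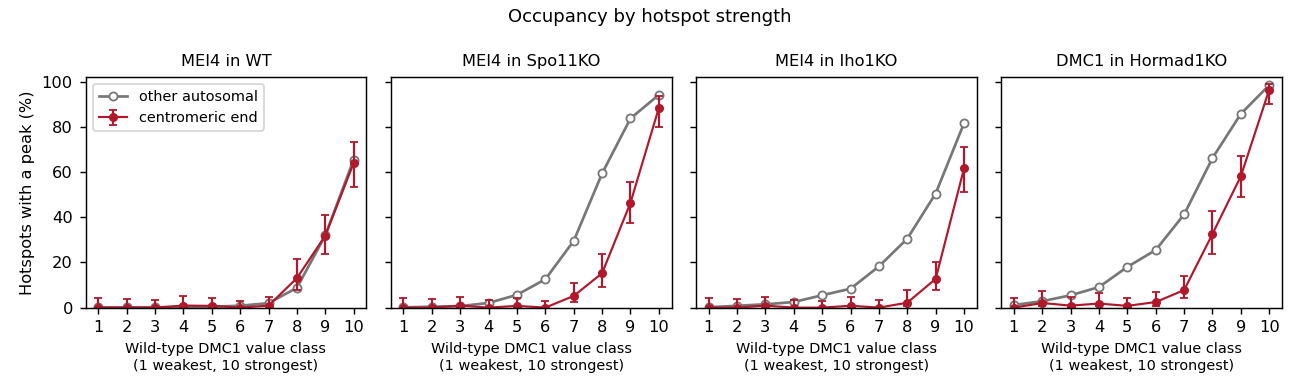
Share of hotspots with a peak, in percent (vertical axis), in 10 equal classes of the wild-type DMC1 value (horizontal axis). Filled points are hotspots near the centromeric end with Wilson 95% intervals and open points are other autosomal hotspots. The 2 curves lie together for MEI4 in the wild type (WT), and in the ninth class they stand at 46.4 and 83.7% for MEI4 in Spo11KO.

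IHO1, which carries MEI4 on the axis, went the same way as MEI4. In the wild type it was at 42 of the 1072 hotspots (3.92%, 2.91 to 5.25), with 3.33% expected and 4.08% over all autosomal hotspots. In Spo11KO it was at 76 (7.09%, 5.70 to 8.78), with 13.5% expected and 14.6% over all, a difference of -6.42 points (-7.88 to -4.67). In Hormad1KO it was at 54 (5.04%, 3.88 to 6.51), with 11.7% expected and 12.7% over all, a difference of -6.66 points (-7.89 to -5.12). Chromosomes below expectation numbered 17 of 19 in each. In Mei4KO and Prdm9KO it was at 3 and 2 of the hotspots, beside 0.293 and 0.15% over all, and neither differed from expectation. The 2 proteins also came together less often: among hotspots with MEI4 in Hormad1KO, 50 of 153 near the centromeric end had IHO1 (32.7%, 25.8 to 40.5), with 58.2% expected. In Spo11KO this was 70 of 149 (47.0%, 39.1 to 55.0), with 61.8% expected, and in the wild type 23 of 105 (21.9%, 15.1 to 30.7), with 23.1% expected and no call.

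HORMAD1, the axis protein that recruits IHO1, was at 44 centromeric-end hotspots in the wild type (4.10%, 3.07 to 5.47), with 3.86% expected and 4.66% over all. In Spo11KO it was at 19 (1.77%, 1.14 to 2.75), with 4.798% expected and 5.3% over all, a difference of -3.03 points (-3.74 to -2.00) found on all 19 chromosomes, 9 of which had no such peak at these hotspots. Of the 44 with wild-type HORMAD1, 11 kept it in Spo11KO (25%, with 57.1% expected). In Iho1KO it was at 7 (0.653%, with 1.38% expected and 1.43% over all), a difference of -0.730 points (-1.13 to -0.0164) that was lost in 6 of 8 alternatives and without any 1 of 14 chromosomes. In Mei4KO it was at 33 (3.08%, 2.20 to 4.29), above the 1.95% expected and 2.04% over all, by 1.13 points (0.212 to 2.36), which was not called without chromosome 11 (0.679) or without hotspots at gene ends (0.318). In Prdm9KO it was at 9, with 3.92 expected and 0.391% over all, by 0.474 points (0.0562 to 1.23), not called without chromosome 4 (0.333) or 17 (0.326), without hotspots at gene ends (0.234) or with an end at 8 Mb (0.511).

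The difference between genotypes was then tested within each hotspot, as the change from the wild type to the knockout against the change at like-value hotspots. All comparisons of a protein share its wild-type list. For MEI4 the change near the centromeric end was 4.10 points in Spo11KO against 17.2 elsewhere (-13.1, -14.8 to -11.4), 4.48 against 16.6 in Hormad1KO (-12.2, -13.8 to -10.5) and -3.17 against 8.76 in Iho1KO (-11.9, -13.6 to -10.2). For IHO1 it was 3.17 against 10.2 in Spo11KO (-7.01, -8.48 to -5.53) and 1.12 against 8.36 in Hormad1KO (-7.24, -8.60 to -5.89). For HORMAD1 it was -2.33 against 0.942 in Spo11KO (-3.27, -4.41 to -2.14). Of 17 such differences 6 were lower, 3 were higher, all of SYCP3, and 8 were not called. What orders the rows of the lists is not stated in the sources used here. Row number was lower at hotspots of higher DMC1 value (Spearman rho across peaks, a description, of -0.512 to -0.727 in the wild-type and these 3 knockout MEI4 lists and -0.339 for HORMAD1 in Spo11KO). Keeping as many first rows of each knockout list as its wild-type list holds, an alternative added after seeing the data, made the MEI4 difference from like-value hotspots -6.86 points in Iho1KO, -5.79 in Spo11KO and -5.74 in Hormad1KO. That of HORMAD1 in Spo11KO became -1.13, and all 4 were still called.

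DMC1 hotspots differed in the same direction without HORMAD1. The Hormad1KO DMC1 list held 195 of the 1072 centromeric-end hotspots (18.2%, 16.0 to 20.6), where 33.8% was expected and 34.2% of all autosomal hotspots were found. The difference was -15.6 points (-17.9 to -13.1), and the count was below expectation on 19 of 19 chromosomes. In the strongest class 83 of 86 were found (96.5%, beside 98.5% elsewhere). In the next 2 classes 64 of 110 (58.2%, beside 85.8%) and 30 of 92 (32.6%, beside 66.2%) were found, and among the 784 weaker hotspots 18 were, with 123 expected.

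Hotspots that were found had also lost rank. Over the 4548 autosomal hotspots in both DMC1 lists, each was given its percentile in each list, the strongest being 100. The 195 centromeric-end hotspots had a median percentile of 64.1 in the wild type and 37.8 in Hormad1KO, while the 4353 others had 49.0 and 50.5. Their mean percentile in Hormad1KO was 41.5, against 58.4 expected from others of like wild-type value, a difference of -16.9 ± 1.45 (SE over hotspots, 95% interval -19.7 to -14.0). The rank fell for 155 of the 195 (79.5%) and rose for 40, while it fell for 49.3% of the others. These shares are not matched for wild-type value, which was higher in the 195. The median shift, also not matched, was -21.5 percentiles, with quartiles of -38.1 and -4.21. It was negative on 18 of 19 chromosomes, at -0.770 on chromosome 16. Many of these medians rest on few hotspots, from 2 on chromosomes 3 and 10 to 27 on chromosome 17. Only hotspots in both lists have a rank, so these values describe the 195 alone.

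**Figure D3:**
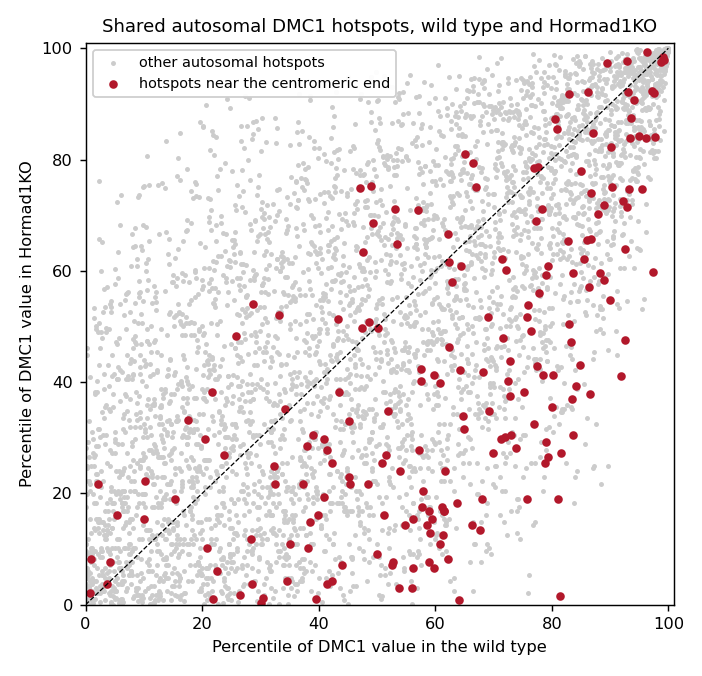
Percentile of the DMC1 value in the wild type (horizontal axis) and in Hormad1KO (vertical axis) for 4548 autosomal hotspots in both lists. Larger points are the 195 hotspots near the centromeric end and the dashed line marks equal percentiles. Below the line lie 155 of the 195.

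Single hotspots show the range. The 5 strongest held their place in part. The strongest, chr16:5843994-5846288, 38505 bp from Rbfox1, had a wild-type value of 10438 and went from percentile 99.2 to 97.8. Those at chr12:4972958-4975393, inside the gene Atad2b (10013.5), and chr12:3512307-3514382, 1496 bp from Asxl2 (8279), went from 99.1 to 98.4 and from 98.7 to 97.5. The hotspot chr2:7636561-7638758 (6545.5) fell from 97.7 to 84.0, and chr17:6154983-6156950 in Tulp4 (6205) from 97.5 to 92.0. These 5 had MEI4 in Spo11KO, Iho1KO and Hormad1KO, and all but the last also in the wild type. The steepest falls were from percentile 81.4 to 1.50 at chr8:10833160-10835163 (wild-type value 1831.5), from 64.1 to 0.803 at chr15:10406687-10408816 in Agxt2 (1004.5) and from 81.0 to 18.99 at chr2:8965670-8967636 (1802). The first of these had MEI4, IHO1, HORMAD1 and SYCP3 in the wild type, MEI4 and IHO1 in Spo11KO, and no peak in Iho1KO or Hormad1KO. Among the largest rises was chr17:10057395-10059102, 147369 bp from Qk, from percentile 49.0 to 75.3.

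The chromosomes were not alike. On 14 of the 19 the share found in Hormad1KO was called lower than expected from other autosomal hotspots. It was lowest on chromosome 10, with 2 of 72 hotspots (2.78%, 30.9% expected), and chromosome 5, with 3 of 56 (5.36%, 35.7% expected). On chromosome 17 it was 27 of 71 (38.0%, with 39.8% expected), on 12 it was 19 of 68 (27.9%, 29.0%) and on 16 it was 21 of 70 (30%, 34.03%). None of these 3 was called, nor were chromosomes 7 and 19. On chromosome 17 the median rank of shared hotspots rose, by 8.16 percentiles over 27 hotspots. Wild-type MEI4 was called lower on chromosome 10 alone, with 0 of 72 hotspots and 6.04% expected. A count of 0 allows a share of up to 4.17% by 3 counts, and the Wilson limit is 5.07%. MEI4 in Iho1KO was called lower on 12 chromosomes, in Spo11KO on 10 and in Hormad1KO on 7, and higher on none. No test compared the chromosomes with one another.

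**Figure D4:**
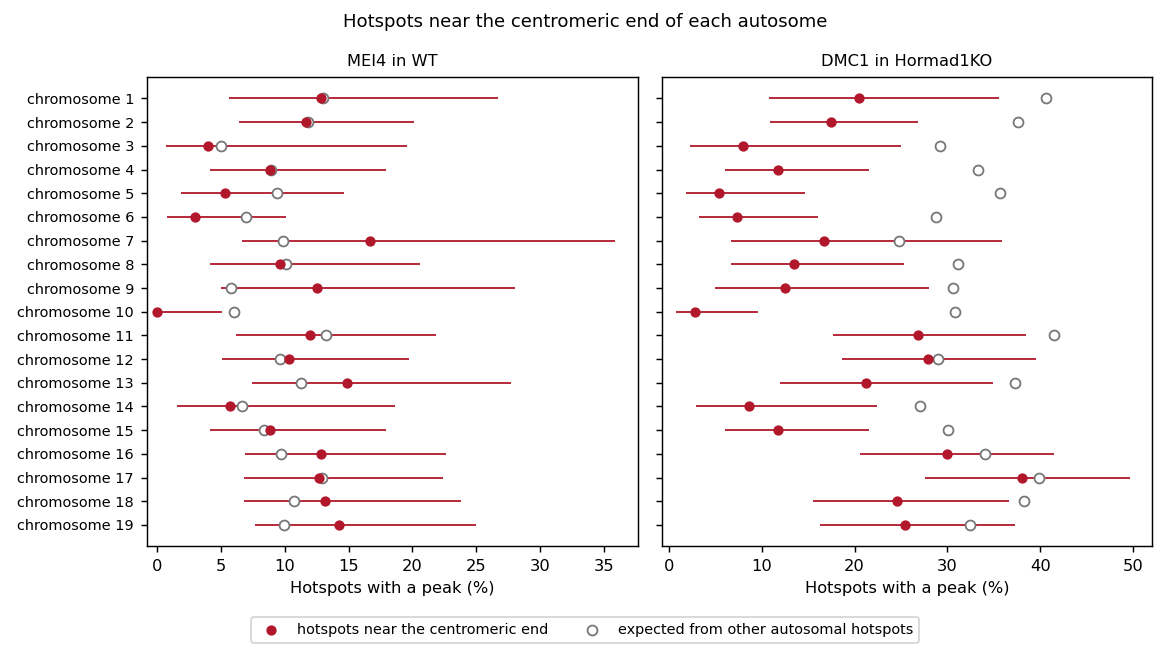
Share of centromeric-end hotspots with a peak, in percent (horizontal axis), on each autosome (rows), for MEI4 in the wild type (WT, left) and DMC1 in Hormad1KO (right). Filled points are these hotspots with Wilson 95% intervals and open points the shares expected from other autosomal hotspots of like value. On the right the filled point is at 2.78% on chromosome 10 and at 38.0% on chromosome 17.

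MEI4 in Spo11KO, Iho1KO and Hormad1KO, and DMC1 in Hormad1KO, had a shortfall past 12 Mb too. Measured as a ratio of observed to expected hotspots, it was smaller from 20 Mb on. The ratio of observed to expected hotspots in the Hormad1KO DMC1 list was 0.457 between 3 and 6 Mb, 0.483 between 6 and 9 Mb and 0.654 between 9 and 12 Mb. It then went on to 0.728 (12 to 15 Mb), 0.715 (15 to 20 Mb), 0.860 (20 to 30 Mb) and 1.04 (30 to 50 Mb). For MEI4 in Iho1KO these ratios were 0.362, 0.269, 0.423, 0.460, 0.535, 0.764 and 1.03. For MEI4 in Spo11KO they were 0.363, 0.546, 0.632, 0.818, 0.776, 0.898 and 0.976. For MEI4 in Hormad1KO they were 0.569, 0.432, 0.602, 0.671, 0.646, 0.832 and 1.03. Inside the first 12 Mb the ratios of MEI4 in Iho1KO and Hormad1KO did not rise steadily and were lowest between 6 and 9 Mb. HORMAD1 in Spo11KO ran otherwise, with 0.470, 0.355 and 0.295 up to 12 Mb and 0.778 (0.482 to 1.24) at 12 to 15 Mb, on 5 to 16 occupied hotspots a stretch. Wild-type MEI4 gave 0.958, 1.13 and 0.975 in the first 3 stretches, with intervals that included 1. Stretches past 12 Mb, with the last 12 Mb, make up the hotspots from which the expected counts were taken. Their ratios therefore average 1 by construction when weighted by expected count, and only the first 3 stretches are compared with separate hotspots.

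**Figure D5:**
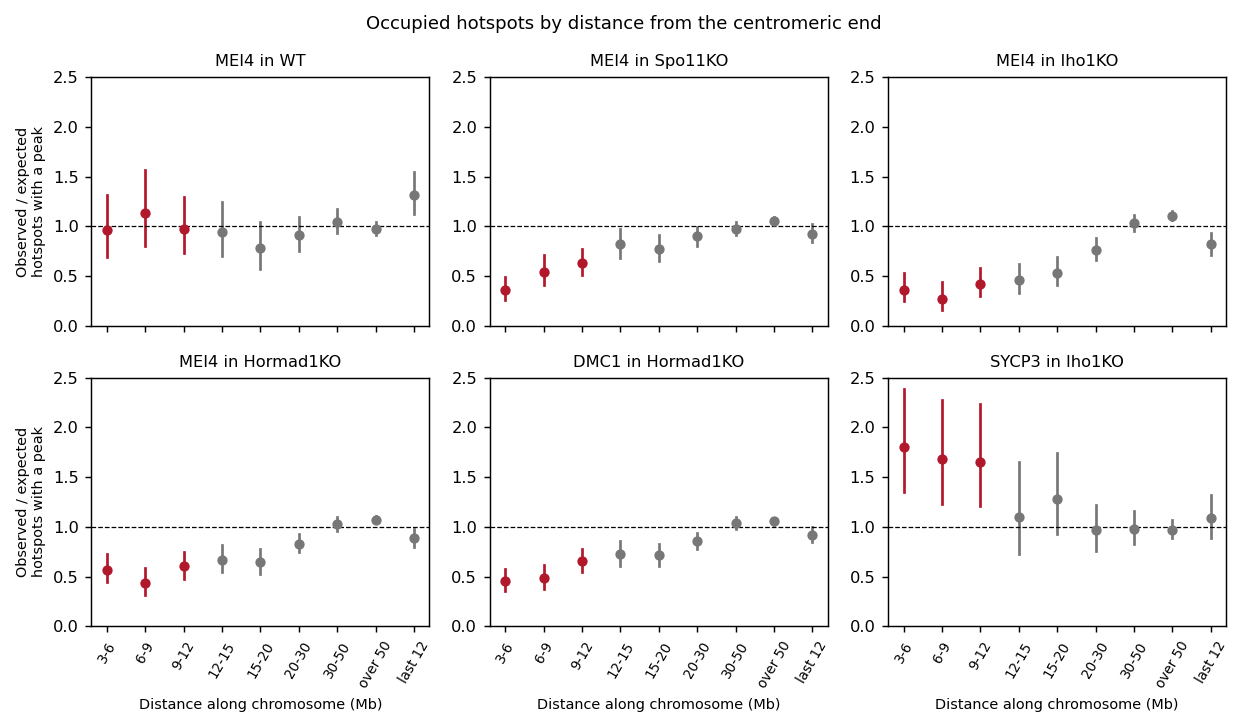
Ratio of observed hotspots with a peak to the number expected from strength (vertical axis) by distance along the chromosome in Mb, with the last 12 Mb apart (horizontal axis). Each panel is a list, bars are Wilson 95% intervals divided by the expected share, and the first 3 points are the centromeric-end hotspots. The other points together form the set that gave the expected shares, so their weighted average is 1 by construction. DMC1 in Hormad1KO rises from 0.457 to 1.04, while MEI4 in the wild type (WT) starts at 0.958.

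In the last 12 Mb the ratios of MEI4 and DMC1 in these knockouts were below 1 too, but nearer to it. They were 0.819 (0.715 to 0.936) for MEI4 in Iho1KO, 0.884 (0.797 to 0.977) for MEI4 in Hormad1KO and 0.918 (0.843 to 0.995) for DMC1 in Hormad1KO. For MEI4 in Spo11KO the ratio was 0.928, with an interval that included 1 (0.840 to 1.02). Wild-type MEI4 was above expectation there, at 1.32 (1.13 to 1.54). Hotspots of the last 12 Mb are themselves part of the set that gave these expectations. Compared directly with the 1383 hotspots of the last 12 Mb at like value, centromeric-end hotspots had MEI4 less often in Iho1KO (-8.86 points, -11.0 to -6.63), Spo11KO (-11.1, -13.6 to -8.36) and Hormad1KO (-9.11, -11.8 to -6.25), and were less often in the Hormad1KO DMC1 list (-12.9, -15.9 to -9.78). In the wild type, MEI4 (-2.52, -4.75 to -0.157) and SYCP3 (-3.46, -5.28 to -1.54) were also less frequent than at the distal end.

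Wild-type DMC1 value was then replaced by the Hormad1KO value as the yardstick, a comparison added after seeing the data. Over the 195 shared hotspots, in 10 classes of Hormad1KO value, MEI4 in Spo11KO differed from other hotspots by 0.954 points (-6.17 to 7.65), MEI4 in Hormad1KO by 3.18 (-3.85 to 9.59), IHO1 in Spo11KO by 1.79 (-4.53 to 8.77) and IHO1 in Hormad1KO by -0.646 (-6.38 to 6.00). None was called. Matched by wild-type value, the same 195 differed by -19.6, -13.9, -17.9 and -21.8 points, all called. This matching leaves the wild-type value free, and its median was higher near the centromeric end in each of the 10 classes, from 507.5 beside 201 in the lowest to 4464 beside 3361.5 in the highest. The wild-type lists are therefore given as a description. At like Hormad1KO value, MEI4 was at 44.1% of the centromeric-end hotspots and 22.7% of the others (21.4 points, 14.6 to 28.5), and IHO1, HORMAD1 and SYCP3 were higher by 8.66, 9.69 and 10.3 points. MEI4 in Iho1KO was lower by either yardstick, by -8.75 points (-15.2 to -1.71) at like Hormad1KO value and -27.9 at like wild-type value. A difference within an interval that includes 0 is not shown to be absent, and these intervals reach from -6.38 to 9.59 points.

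Among centromeric-end hotspots of middle strength (values of 319 to 1244), 94 of 202 were in the Hormad1KO DMC1 list. Of these 94, 46 had MEI4 in Spo11KO (48.9%), against 19 of the 108 that were not in the list (17.6%), a difference of 31.3 points (18.5 to 43.0). MEI4 in Iho1KO was at 16 of the 94 and 0 of the 108, which allows up to 2.78% by 3 counts (Wilson limit 3.43%). In Hormad1KO it was at 52 and 13, a difference of 43.3 points (30.7 to 54.1). Wild-type MEI4 was at 33 and 14 (35.1 and 12.96%, difference 22.1 points, 10.4 to 33.4). The 94 had a median wild-type value of 719 and a median start of 8.90 Mb, and the 108 had 529.5 and 7.04 Mb. Gene ends were at 1 of the 94 and 10 of the 108. The part of strength, position and gene ends in these differences was not tested. Other hotspots of middle strength were not split in this way. Over all strengths, MEI4 in Hormad1KO was at 66.2% of the 195 centromeric-end hotspots in the Hormad1KO DMC1 list, with 79.9% expected. It was at 2.74% of the 877 not in the list, with 6.69% expected. A split of this kind was thus present at other hotspots too.

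SYCP3, the core of the axis, did not follow MEI4 in its totals over the 1072 hotspots. The labels give 1 library each for SYCP3 in Iho1KO, Prdm9KO and Spo11KO and 2 for every other group used here. In the wild type it was at 55 of the 1072 hotspots (5.13%, 3.96 to 6.62), with 6.42% expected and 7.56% over all, and the difference of -1.29 points (-2.50 to 0.223) was within its error. It was called lower with a stricter overlap, a 1 kb window at each hotspot's centre or a comparison within chromosomes. In Spo11KO SYCP3 was at 52 (4.85%, with 5.38% expected and 5.95% over all) and in Hormad1KO at 8 (0.746%, with 1.31% expected and 1.46% over all), and neither was called. Of the 55 hotspots with wild-type SYCP3, 12 kept it in Spo11KO (21.8%, with 40.9% expected), a difference of -19.0 points (-28.5 to -6.07). Of the 1017 without it, 40 had a SYCP3 peak in Spo11KO (3.93%, with 3.07% expected), which was not called. In Iho1KO SYCP3 was at 113 (10.5%, 8.84 to 12.5), with 6.14% expected and 6.56% over all, 4.40 points higher (2.64 to 6.42). In Prdm9KO it was at 30 (2.80%, 1.97 to 3.97), with 1.03% expected and 1.1% over all, 1.77 points higher (0.915 to 2.95). In Mei4KO it was at 19, with 1.06% expected and 1.11% over all, 0.715 points higher (0.0500 to 1.71), which was not called within chromosomes (0.599). Chromosomes above expectation numbered 14 of 19 in Iho1KO and 15 in Prdm9KO. In Iho1KO 6 of them were called higher, and ratios of observed to expected ran from 0.421 to 5.11 over the chromosomes. In Prdm9KO at most 0.816 was expected on a chromosome (chromosome 2), so 1 peak was enough to be above. From the wild type, SYCP3 changed by 5.41 points in Iho1KO against -0.279 at like-value hotspots (5.69, 3.62 to 7.76). In Prdm9KO and Mei4KO it fell, but less than at like-value hotspots. The changes were -2.33 against -5.40 points in Prdm9KO (3.06, 1.70 to 4.43) and -3.36 against -5.37 in Mei4KO (2.01, 0.751 to 3.26).

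Gene ends moved with these higher shares of SYCP3. Of the 1072 hotspots, 221 (20.6%, 18.3 to 23.1) lay within 1 kb of either end of a protein-coding gene, against 12.7% expected and 13.3% over all, a difference of 7.90 points (5.51 to 10.5). Promoter windows touched 145 of the 1072 (13.5%), with 8.65% expected and 9.04% over all. Coding genes numbered 8.17 per Mb near the end and 8.63 further along. In Iho1KO, SYCP3 was at 100 of these 221 hotspots (45.2%, 38.8 to 51.8), with 36.3% expected from other gene-end hotspots, 8.92 points higher (2.02 to 16.0). At the 851 away from gene ends it was at 13 (1.53%), with 1.88% expected, -0.353 points (-1.04 to 0.741). The call in Iho1KO therefore rests on gene-end hotspots. In Prdm9KO 24 of the 30 were at gene ends, where the difference was 3.32 points and not called, and the 6 elsewhere were 0.468 points above expectation (0.0703 to 1.296). In Mei4KO 14 of the 19 were at gene ends. The part of promoters in these peaks was not tested. Of the 86 hotspots of the strongest class none had SYCP3 in Iho1KO, where 7.70% of other hotspots of that class did. The 89 promoter windows inside hotspots with SYCP3 in Iho1KO had a median of 27 CG dinucleotides in the 250 bases before the start (quartiles 21 and 36), and the 105 inside hotspots without it had 16 (9 and 22). The median over 31396 autosomal windows was 6. Windows inside other hotspots were not counted apart, so these values do not show a trait of the centromeric end. The Map2k7, Fam133b, Tmem243 and Taf3 windows shown above held 17 to 26. CTCF, which binds DNA at loop anchors, was at 96 hotspots in the wild type (8.96%, 7.39 to 10.8), with 8.57% expected and 8.61% over all.

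Most centromeric-end hotspots had no called peak of the 4 proteins, which does not show that the proteins were absent. No list had a peak at 737 of the 1072 (68.8%, 65.9 to 71.5), where 59.4% was expected, 9.36 points more (6.43 to 12.2). In 1 list there were peaks at 124 hotspots. Of the 5 hotspots with peaks in most lists, the first 2 were weak and the other 3, with 12, 10 and 10 lists, were the 3 strongest named above. The weak one at chr17:3082973-3086144, over the transcribed pseudogene Pisd-ps2, had peaks in 19 of the 21 lists, all but wild-type MEI4 and SYCP3 in Mei4KO, with a DMC1 value of 55.5 and a CTCF peak. That at chr17:7863460-7865409, in the lncRNA gene Gm1604a, had peaks in 16 and a value of 108.5. Neither was in the Hormad1KO DMC1 list. The hotspots with the lowest starts were chr18:3005088-3006773 (value 59.0), chr5:3050682-3052749 (141.5) and the one over Pisd-ps2. The first 2 had no peak in any of the 21 lists, and that on chromosome 18 rose from percentile 2.07 to 21.7 in Hormad1KO.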

How the data were processed

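ChIP-seq of MEI4, IHO1, HORMAD1, SYCP3, DMC1 and CTCF was compared in synchronised mouse testes. The authors deposited 1 interval list per group, on mm10, with Bowtie2 and MACS2 named without version or role, per the submitters' processing notes. Per the series' design text, the signal of each protein's own knockout was subtracted. The DMC1 lists carry a signal value per hotspot, made by the authors before they deposited it; its unit and how it was made are not given in the sources used here. Whether the 2 libraries of a group (1 for SYCP3 in Iho1KO, Prdm9KO and Spo11KO) were pooled is not stated, and read depth is unknown, so no depth was weighed.

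Overlaps, shares and intervals were computed in Python 3.11.15 with numpy 2.4.6, pandas 2.3.3 and scipy 1.17.1, and tested on simulated data. Shares have Wilson intervals. Standardised differences combine 2 such intervals by the method of Newcombe, and rank and genotype differences have normal intervals over hotspots. Gene ends (either end of 21887 protein-coding genes, widened by 1 kb; the table gives no strand) and promoters are from RefSeq, GRCm38.p6. Positions are counted from 1. Exons and introns were not annotated.

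The hotspots and lists were chosen with earlier results of these data known. Named hotspots are the 5 with the highest wild-type value, the 5 with peaks in most lists (ties by value), the 3 largest rises and 3 largest falls in rank in Hormad1KO, and the 3 lowest starts. Of these, 2 are not reported here. Alternatives were a stricter overlap (50% of the shorter of the intervals), the central 1 kb of each hotspot, 20 value classes, the last 12 Mb left out, classes within chromosomes, an end at 8 Mb, gene-end hotspots left out, each chromosome left out, and, added after seeing the data, first rows of the knockout lists and classes of the Hormad1KO value.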

Additional observations from a re-analysis of the deposited data

Results flagged for a closer look

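Changes from the wild type to a knockout that differed between hotspots near the centromeric end and other hotspots of like value, with a 95% interval of the difference that excluded 0, were picked out. For MEI4 these were Spo11KO (-13.1 points), Hormad1KO (-12.2) and Iho1KO (-11.9). For IHO1 they were Spo11KO (-7.01) and Hormad1KO (-7.24), and for HORMAD1 Spo11KO (-3.27). SYCP3 differed upwards in Iho1KO (5.69), where it rose, and in Prdm9KO (3.06) and Mei4KO (2.01), where it fell less than elsewhere. Comparisons of a protein share its wild-type list and are not independent. No group had enough lists to look for an outlying sample.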

How the results depend on the processing

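Of 270 values under alternatives other than leaving out a chromosome, 249 were counted as unchanged. So were 799 of 836 values with a chromosome left out. A called difference then kept its direction and call. An uncalled one stayed uncalled and inside its main interval, but its sign could change, as for wild-type MEI4 within chromosomes (-0.125). At like wild-type value, the lower shares of MEI4 (Spo11KO, Iho1KO, Hormad1KO), IHO1 (Spo11KO, Hormad1KO) and DMC1 (Hormad1KO) kept direction and call in all. Others changed, in points. Without gene-end hotspots SYCP3 in Iho1KO was -0.353, reversed and not called. Calls were lost for SYCP3 in Mei4KO (0.322, and 0.599 within chromosomes), HORMAD1 in Mei4KO (0.318) and in Prdm9KO (0.234, and 0.511 with an end at 8 Mb). SYCP3 in Spo11KO was called lower (-2.31), HORMAD1 in Spo11KO at like Hormad1KO value too (-4.59), and CTCF moved to -1.58. HORMAD1 in Iho1KO lost its call with the stricter overlap (-0.624), 20 classes (-0.686), the last 12 Mb left out (-0.711), an end at 8 Mb (-0.305), no gene-end hotspots (-0.560) and first rows (-0.186), while its change from the wild type was called with 20 classes (-1.22). Wild-type SYCP3 was called lower with the stricter overlap (-1.61), the 1 kb window (-1.90) and within chromosomes (-1.59). SYCP3 in Hormad1KO changed less than elsewhere with the 1 kb window (1.26), and MEI4 in Prdm9KO, at 1 hotspot, was called higher without the last 12 Mb (0.0933). The causes were not tested.

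Leaving out 1 chromosome at a time gave -0.167 to 0.110 for IHO1 in Prdm9KO, 0.326 to 0.546, 0.679 to 1.31 and -0.912 to -0.642 for HORMAD1 in Prdm9KO, Mei4KO and Iho1KO, and -1.61 to -1.14, 0.538 to 0.850 and -0.802 to -0.441 for SYCP3 in the wild type, Mei4KO and Hormad1KO. It gave -3.42 to -2.54 for the share in the strongest 25%, and -1.24 to -0.714 for the change of HORMAD1 in Iho1KO. Each of these ranges holds values on both sides of the call, or for IHO1 in Prdm9KO of 0. The removal of chromosome 17 alone called wild-type SYCP3 lower, and that of chromosome 12, 16 or 17 SYCP3 in Hormad1KO; SYCP3 in Mei4KO lost its call without chromosome 1, 10, 11, 17 or 19. The change of HORMAD1 in Iho1KO was called without chromosome 2 or 11, and IHO1 in Prdm9KO was lowest without 17. No paired analysis was possible because each group has 1 list. With 1 list per group the spread between mice is unknown, and lists without depth or peak height cannot show weaker binding at an occupied hotspot.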

Other observations

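Peaks away from hotspots were counted by position too. In the wild type, 83 of the 869 autosomal IHO1 peaks that overlapped no hotspot (9.55%, 7.77 to 11.7) began in the first 12 Mb. In Spo11KO this was 17 of 697 (2.44%, 1.53 to 3.87), in Mei4KO 34 of 967 (3.52%, 2.53 to 4.87) and in Prdm9KO 24 of 327 (7.34%, 4.98 to 10.7). In Hormad1KO it was 5.94% (2.75 to 12.4), from 6 peaks. For HORMAD1 the shares were 5.31% of 961 peaks in the wild type, 4.00% of 4920 in Mei4KO, and 4.26, 3.83 and 3.89% in Prdm9KO, Spo11KO and Iho1KO. Over the 6 SYCP3 lists the lowest was 3.14% (wild type) and the highest 5.73% (Prdm9KO), and for CTCF the share was 5.38% of 30630 peaks (5.13 to 5.64). MEI4 had 0 to 3 such peaks a list. These values have no comparison at like strength, since peaks outside hotspots carry no DMC1 value.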
